A study of Mus musculus with 9 samples.

Results

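Pyrimidine nucleotides are built de novo from glutamine and aspartate through a short enzyme chain, or salvaged from uridine and other nucleosides, and a growing cell needs them for RNA, sugar nucleotides, lipids and DNA. For DNA, ribonucleotide reductase makes deoxynucleotides and thymidylate synthase or thymidine kinase supplies the thymidine form. Resting T cells keep this machinery low, and activation is known to raise it as the cells enter division. The 10 mouse genes described here were chosen by name as enzymes of these steps. Cad, Dhodh, Umps and Ctps act in de novo synthesis, Upp1 and Uck2 handle uridine, and Rrm1, Rrm2, Tyms and Tk1 supply deoxynucleotides. All 10 were present among the 20618 genes of the deposited tables.

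The libraries came from total RNA of wild type mouse CD8+ T cells, described by source as primary cells. The cells were held for 24 h in medium with 2 mM glucose, with 2 mM inosine, or with 2 mM inosine plus hypoxanthine, in 3 libraries per medium and 9 in all. Inosine is a purine nucleoside whose ribose can be metabolised, and hypoxanthine is its purine base. All 3 media contained 10% dialyzed FBS, all samples carried the same batch label, and live cells (about 80%) were sorted. The dose of hypoxanthine is left out because its unit is damaged in the label. One question is whether the genes differ when inosine stands in for glucose, and another is whether they differ when hypoxanthine is present as well. No label says that the libraries came from separate mice or cultures, so the p-values reflect library-to-library spread, which may be technical.

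Levels are in FPKM, the authors' fragment values per length of gene and per size of library, which allows levels to be set side by side between genes. Differences are given on the scale of log2(FPKM + 1), from 1 limma fit of all genes and libraries, with Benjamini-Hochberg adjustment over all genes and a call at an adjusted p under 0.05. Reads recovered from the deposited values summed to between 29973560 and 48687898 per library. The reads behind a member in a library ran from 500 for Upp1 to 22699 for Rrm1. Of 9 listed markers of CD8+ T cells, 6 were measured, all above 1 FPKM on average, and they summed to 632.6 to 681.5 FPKM with glucose, 569 to 770.7 with inosine and 1088 to 1174 with inosine plus hypoxanthine. Against glucose, Cd247 was lower with hypoxanthine, at 31.2 to 33.6 FPKM against 41.3 to 44.5, while the rest of the 6 were higher. Of the markers listed for other blood cells, most were under 1 FPKM, such as Cd4 at 0.025 FPKM and Adgre1 at 0.00172. A single marker of each of 4 lists was above 1 FPKM: Zbtb7b (CD4+ T cells) at 5.75 FPKM, Cd68 (myeloid cells) at 3.3, Cd79b (B cells) at 1.31 and Eomes (NK cells, and known also in CD8+ T cells) at 10.3. The summed level of the NK list was 11.1 to 11.3 FPKM with glucose, 9.36 to 11.7 with inosine and 8.48 to 10.3 with hypoxanthine, that of the CD4+ T cell list 5.72 to 6.65, 4.49 to 6.74 and 5.48 to 6.45, and that of the myeloid list 3.07 to 4.27, 2.57 to 4.24 and 3.19 to 3.88. The B cell list summed to between 1.32 and 1.84 FPKM in all 9 libraries, and all 3 media overlapped in each of these 4 lists except glucose and hypoxanthine in the NK list. The part of these markers in the results below was not tested. In such bulk samples, fewer cells of a type and less RNA per cell cannot be told apart.

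Hypoxanthine added to inosine went with lower levels of 4 of the 10 enzyme genes: Upp1, Dhodh, Ctps and Rrm2. Upp1, which splits uridine to uracil and ribose phosphate, averaged 8.82 FPKM with hypoxanthine and 40.2 FPKM without, a 4.56-fold lower level. Dhodh, the mitochondrial step of de novo synthesis, was 1.57-fold lower, Rrm2 1.31-fold lower and Ctps 1.27-fold lower. No member was called higher. By the same rule, limma called 9.59% of all 20618 genes lower and 11.7% higher in this comparison, and 16.0% of the 9947 genes that averaged 1 FPKM or more were called lower. All 10 members belong to those 9947 genes, and the list itself was not tested. The median log2 difference was -0.26 over the 10 members, 0.00 over all genes (0.002) and 0.02 over the genes of at least 1 FPKM, and the log2 difference was below 0 in 10 of 10 members. The moderated F test of limma among the 3 media called the same 4 members, against 19.3% of all genes. In a fit of the 9947 genes of at least 1 FPKM, that test called 3673 genes and again these 4 members. Without inosine replicate 1, 7 members were called lower against inosine, with Rrm1, Tk1 and Umps added, beside 1856 of 20618 genes. Without inosine replicate 2, 6 were called lower, with Cad and Uck2 added, beside 1967 of 20618 genes.

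Start-site windows of members that were called lower together are shown here, so that a reader can see what the letters share. Those of Rrm1 and Tyms are also shown, the only members not called whose windows held a searched word. Each window is the 250 bases before the start site in RefSeq, build GRCm38.p6, printed 5′ to 3′ on the strand of the gene. An entry was found for 9 of the 10 members, none for Dhodh. For Upp1, with 3 entries, and Ctps, with 2, the entry nearest the start of the annotated gene was taken. Capitals mark matches, on either strand, to CACGTG (the E-box bound by MYC and related factors), CCAAT (the CCAAT box bound by NF-Y) or TGAGTCA (the AP-1 site); the last word was added after the letters of Upp1 had been seen. The windows lie at chr11:9117758-9118007 on the plus strand for Upp1, chr4:120570277-120570526 on the minus strand for Ctps, chr12:24708004-24708253 on the plus strand for Rrm2, chr7:102441445-102441694 on the plus strand for Rrm1 and chr5:30073626-30073875 on the minus strand for Tyms.
Upp1: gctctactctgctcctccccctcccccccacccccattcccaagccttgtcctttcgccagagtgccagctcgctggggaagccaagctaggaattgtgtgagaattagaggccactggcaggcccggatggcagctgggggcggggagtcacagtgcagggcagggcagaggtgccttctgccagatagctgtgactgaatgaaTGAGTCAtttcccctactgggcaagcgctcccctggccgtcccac
Ctps: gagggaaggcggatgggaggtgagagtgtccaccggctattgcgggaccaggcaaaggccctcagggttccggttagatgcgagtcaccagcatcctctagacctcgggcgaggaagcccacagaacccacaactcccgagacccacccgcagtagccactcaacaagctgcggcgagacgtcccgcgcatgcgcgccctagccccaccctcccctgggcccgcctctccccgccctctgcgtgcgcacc
Rrm2: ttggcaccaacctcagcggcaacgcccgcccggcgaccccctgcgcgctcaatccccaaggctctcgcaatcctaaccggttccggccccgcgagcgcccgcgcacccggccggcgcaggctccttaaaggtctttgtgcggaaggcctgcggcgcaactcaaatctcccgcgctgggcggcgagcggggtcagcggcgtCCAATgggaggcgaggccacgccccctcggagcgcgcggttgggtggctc
Rrm1: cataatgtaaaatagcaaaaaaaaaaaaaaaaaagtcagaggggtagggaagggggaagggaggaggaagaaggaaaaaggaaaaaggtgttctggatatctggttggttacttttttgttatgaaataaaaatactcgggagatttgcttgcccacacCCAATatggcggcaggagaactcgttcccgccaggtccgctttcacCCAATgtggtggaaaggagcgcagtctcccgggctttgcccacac
Tyms: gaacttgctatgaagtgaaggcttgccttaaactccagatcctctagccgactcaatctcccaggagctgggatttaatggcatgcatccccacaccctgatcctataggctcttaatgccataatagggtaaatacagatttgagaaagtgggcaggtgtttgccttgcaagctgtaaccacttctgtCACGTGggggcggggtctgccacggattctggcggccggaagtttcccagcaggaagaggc
The AP-1 word begins 45 bases before the start site of Upp1 and occurred in 4.46% of the 32851 windows of the table. CCAAT begins 50 bases before the start site of Rrm2 and, in Rrm1, both 91 and 45 bases before it, and 33.8% of all windows hold this short word. CACGTG begins 61 bases before the start site of Tyms and occurred in 6.02% of windows. None of the E2F words TTTCCCGC, TTTGGCGC, TTTCGCGC and TTTGCCGC was found in the 9 windows, against 1.86% of all windows. None of these words overlap one another in the windows shown. The windows of the 3 called members share no searched word, and Rrm1, not called, holds the same CCAAT word as Rrm2. The windows of Cad, Umps, Uck2 and Tk1, not called and not printed, hold none of the searched words. A match of letters is a description of the window only.

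**Figure D1:**
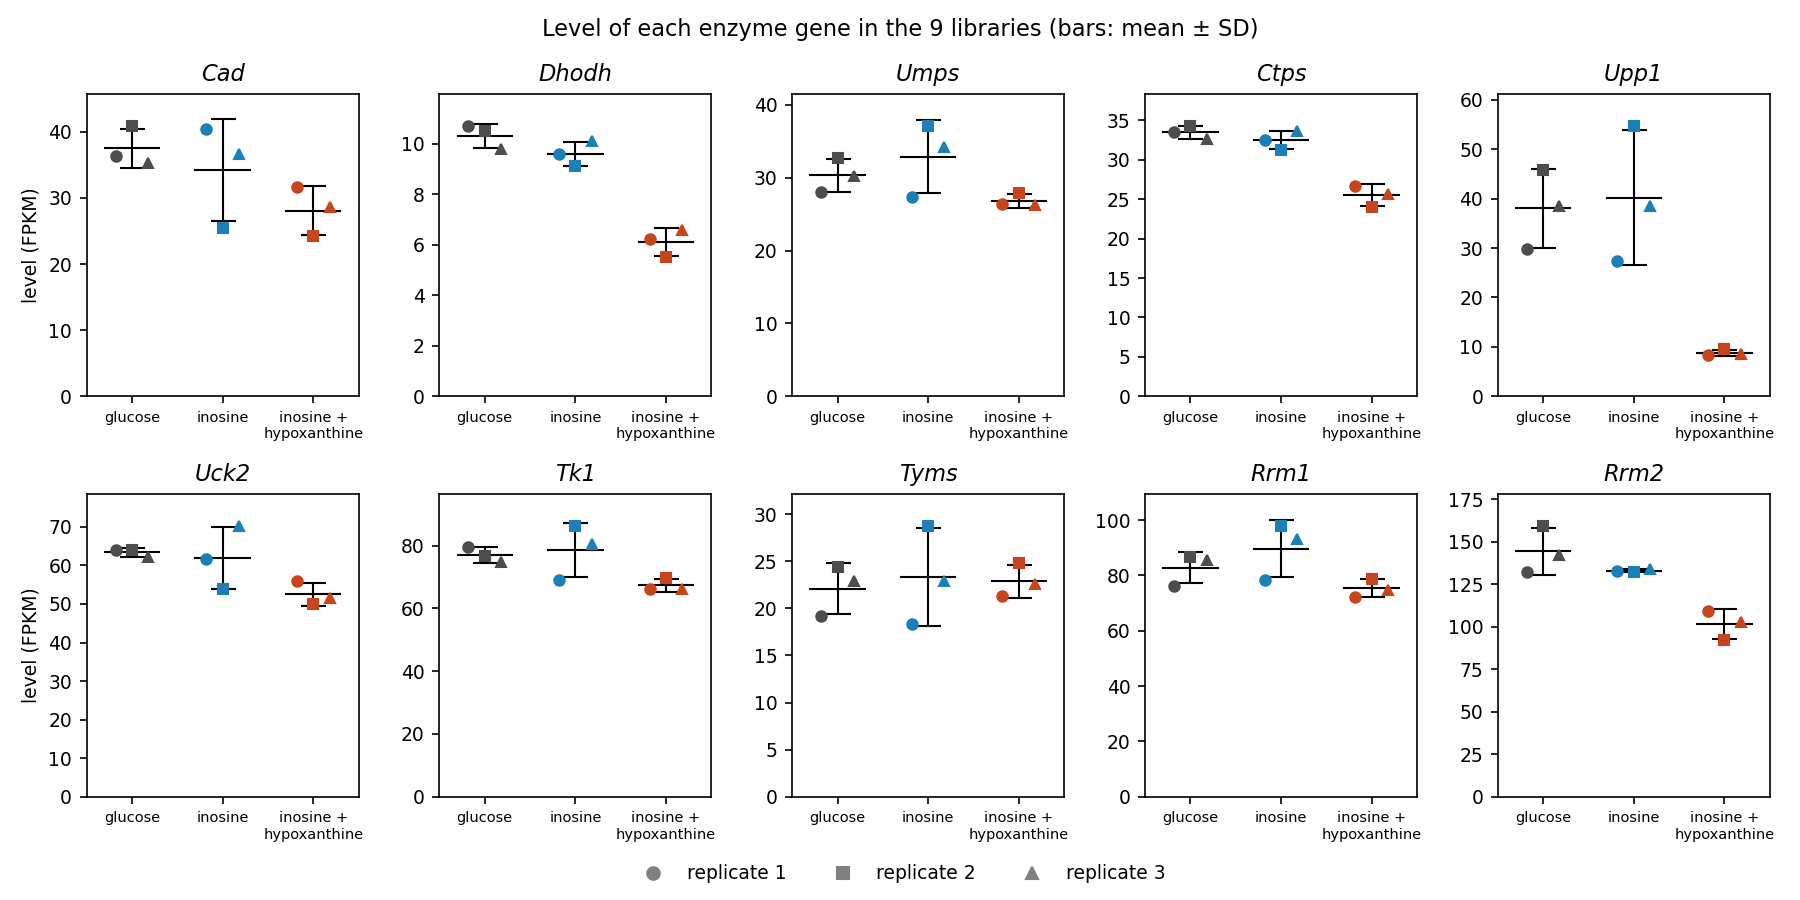
FPKM of each of the 10 enzyme genes (vertical axes, from 0) in the 9 libraries, by medium; symbols mark the replicate number, and black bars give the mean ± SD of 3 libraries. Upp1 lies at 8.41 to 9.51 FPKM with hypoxanthine and at 27.4 FPKM or more elsewhere, while the 3 media overlap for Tyms.

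The de novo chain opens with Cad, the large protein that carries the first activities of pyrimidine synthesis. Its level was 40.4, 25.5 and 36.6 FPKM with inosine and 31.6, 24.2 and 28.6 FPKM with inosine plus hypoxanthine. The second inosine library lay within the range of the hypoxanthine libraries, so the groups overlapped. The log2 difference was -0.25 (SE 0.17) with an adjusted p of 0.348 by limma, which is not a call. Its 95% interval ran from -0.63 to 0.12.

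Dhodh, dihydroorotate dehydrogenase, oxidises dihydroorotate at the inner mitochondrial membrane and passes electrons to ubiquinone, and its gene lies at chr8:109593244-109608699 on the minus strand (GRCm38.p6). It was the lowest of the 10 genes, at 10.7, 10.5 and 9.77 FPKM with glucose and 9.59, 9.12 and 10.1 FPKM with inosine. With inosine plus hypoxanthine it measured 6.21, 5.51 and 6.59 FPKM. Every library of the third medium lay below all 6 of the others. The fall against inosine was -0.58 on the log2 scale (SE 0.076, adjusted p = 0.00112, limma).

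Umps, the bifunctional enzyme that turns orotate into UMP, measured 27.3, 37.1 and 34.2 FPKM with inosine. With hypoxanthine added it measured 26.4, 27.9 and 26.2 FPKM. The lowest inosine library lay below the highest hypoxanthine library, so the groups overlapped. The difference of -0.27 (SE 0.11) was not called (adjusted p = 0.121, limma), with an interval from -0.52 to -0.02.

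Ctps, CTP synthetase, makes CTP from UTP and glutamine and closes the ribonucleotide part of the chain, from a gene at chr4:120539868-120570276 on the minus strand. It was steady within media, at 33.5, 34.3 and 32.6 FPKM with glucose and 32.5, 31.3 and 33.6 FPKM with inosine. With hypoxanthine it measured 26.7, 24 and 25.7 FPKM. No library of the third medium reached the level of any other library. The drop against inosine was small but larger than the spread, at -0.34 on the log2 scale (SE 0.063, adjusted p = 0.00572, limma).

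Upp1, at chr11:9118008-9136170 on the plus strand, had the widest spread of the 10 genes within the inosine medium and the largest differences between media. Its level was 29.9, 45.7 and 38.4 FPKM with glucose and 27.4, 54.7 and 38.6 FPKM with inosine. With inosine plus hypoxanthine it measured 8.41, 9.51 and 8.53 FPKM. The hypoxanthine libraries lay close together and far under the lowest of the other 6. The log2 difference against inosine was -2.02 (SE 0.23, adjusted p = 0.000572, limma), with an interval from -2.54 to -1.49. The AP-1 word printed above lies in the window of this gene.

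Uck2, the uridine-cytidine kinase that returns uridine to UMP, measured 61.7, 53.9 and 70.1 FPKM with inosine. With hypoxanthine added it measured 55.9, 50.1 and 51.5 FPKM. The second inosine library overlapped the hypoxanthine libraries. The difference of -0.23 (SE 0.095) had an adjusted p of 0.131 and was not called by limma, with an interval from -0.44 to -0.01. Of the uridine pair, the gene that breaks uridine down was therefore called and the gene that phosphorylates it was not, and their difference is taken up with the ratios below.

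Ribonucleotide reductase pairs the large subunit Rrm1, which holds the catalytic and regulatory sites, with the small subunit Rrm2, which provides the radical and is the subunit degraded and remade with each cell cycle. Rrm2, at chr12:24708254-24714146 on the plus strand, had the highest level of the 10 genes, at 132, 159 and 142 FPKM with glucose and 133, 132 and 134 FPKM with inosine. With inosine plus hypoxanthine it measured 109, 92.4 and 103 FPKM. All 3 of those libraries lay below the other 6. The fall against inosine was -0.39 on the log2 scale (SE 0.088, adjusted p = 0.0143, limma). Without both libraries of the highest mitochondrial share, a choice made after the data were seen, the adjusted p was 0.061 and Rrm2 was no longer called in this comparison.

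Rrm1 measured 78.2, 97.7 and 93.2 FPKM with inosine and 72.3, 78.8 and 74.9 FPKM with hypoxanthine added. The highest hypoxanthine library passed the lowest inosine library. Its difference of -0.24 (SE 0.094, adjusted p = 0.107, limma) was not called, with an interval from -0.46 to -0.03.

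Tyms, thymidylate synthase, methylates dUMP with a folate cofactor. It measured 18.3, 28.7 and 22.9 FPKM with inosine and 21.3, 24.8 and 22.6 FPKM with hypoxanthine, and the hypoxanthine libraries lay within the range of the inosine libraries. The log2 difference was -0.007 with an SE of 0.15 and an interval from -0.35 to 0.34, so a difference of about that size in either direction was not detectable with these libraries. Tk1, the cytosolic thymidine kinase, made in dividing cells, measured 69.1, 86.1 and 80.4 FPKM with inosine and 66.1, 69.8 and 66.1 FPKM with hypoxanthine. The ranges met at the first inosine library. The Tk1 difference of -0.21 (SE 0.084, adjusted p = 0.11, limma) was not called, with an interval from -0.40 to -0.02.

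With inosine in place of glucose, limma called none of the 10 genes, and every adjusted p was 1. None had an unadjusted p under 0.05 either, and limma voom on recovered reads also called 0. In this comparison 0.00970% of all genes were called, 2 of 20618. The differences ran from -0.15 for Cad (SE 0.17) to 0.11 for Rrm1 (SE 0.094), with both groups overlapping in every member. Precision differed between genes: the 95% interval was -0.19 to 0.10 for Ctps and -0.27 to 0.08 for Dhodh, but -0.48 to 0.57 for Upp1. The 5 members below 0 and the 5 above it gave a median of -0.01, against 0.00 over all genes (-0.001).

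Against glucose, the hypoxanthine libraries gave calls for the same 4 genes, all lower, where 9.55% of all genes were called lower, 10.8% higher, and 15.9% of genes of at least 1 FPKM lower. This comparison uses the same 3 hypoxanthine libraries as the comparison with inosine, so the pair are not independent. Upp1 differed by -1.97 (SE 0.23, adjusted p = 0.000654, limma). Dhodh differed by -0.68 (adjusted p = 0.000553), Rrm2 by -0.50 (adjusted p = 0.00456) and Ctps by -0.38 (adjusted p = 0.0034). The other 6 were not called. The libraries of Cad, Umps, Uck2 and Tk1 did not overlap between these media. The share of all genes without overlap was not counted, so no result is read from this. Cad measured 36.3, 40.9 and 35.3 FPKM with glucose, all above the hypoxanthine libraries, and differed by -0.41 (SE 0.17, adjusted p = 0.122). Uck2 measured 64.1, 64 and 62.1 FPKM with glucose and differed by -0.27 (SE 0.095, adjusted p = 0.0788). A fit of the 2 media alone called 7 members lower, adding Cad, Uck2 and Tk1, beside 2247 of 20618 genes. A fit of all libraries over genes of at least 1 FPKM called 6 lower, adding Cad and Uck2, beside 1959 of 9947 genes. Tk1 measured 79.6, 76.7 and 74.8 FPKM with glucose, a difference of -0.19 (adjusted p = 0.15). Umps measured 28.1, 32.7 and 30.2 FPKM, a difference of -0.17 (adjusted p = 0.345). Rrm1, at 76.3, 86.6 and 85.4 FPKM, and Tyms, at 19.2, 24.4 and 22.9 FPKM, overlapped the hypoxanthine libraries, and Tyms gave the only difference above 0, of 0.05 (SE 0.15).

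**Figure D2:**
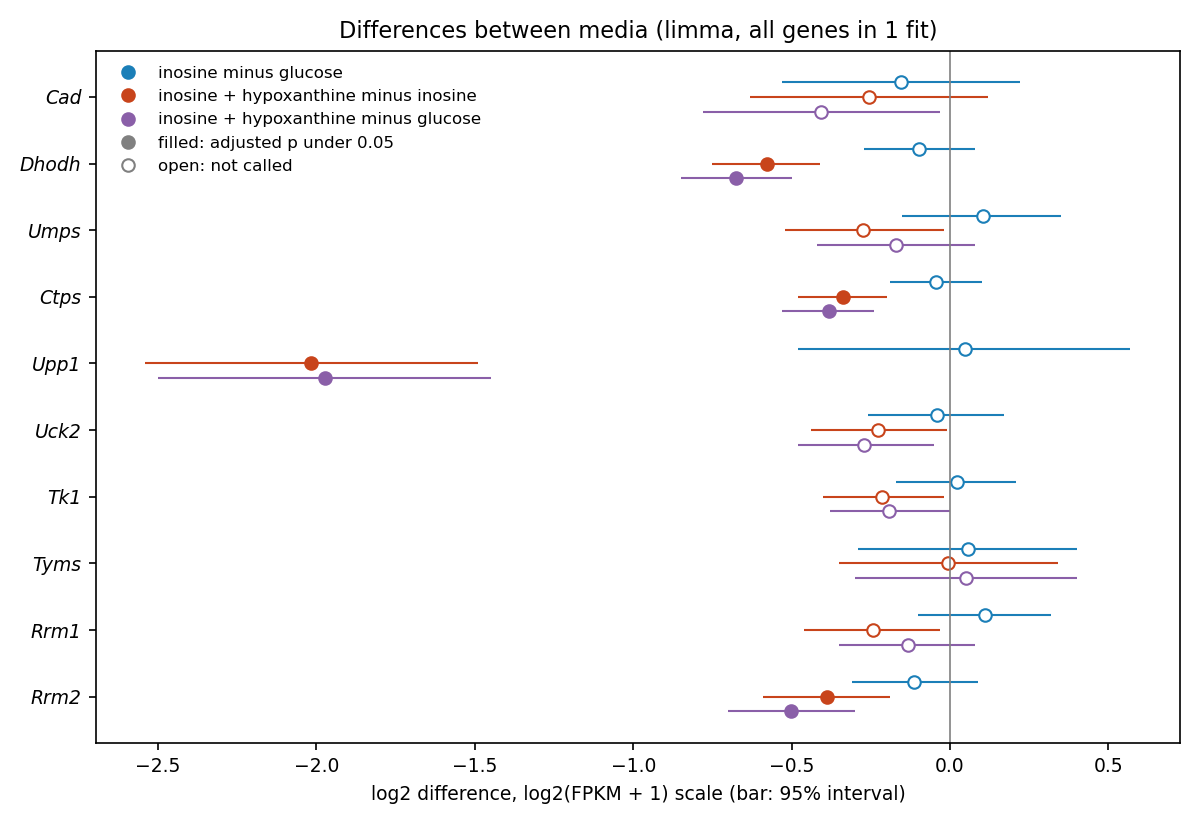
Log2 difference of each enzyme gene between media on the log2(FPKM + 1) scale, with 95% intervals; filled points have a limma adjusted p under 0.05. Upp1, Dhodh, Ctps and Rrm2 are filled in both comparisons with hypoxanthine, and no gene is filled for inosine minus glucose.

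The order of mean levels was largely the same in the 3 media, apart from Upp1. In glucose the means ran from Rrm2 at 144.4 FPKM through Rrm1 (82.8), Tk1 (77), Uck2 (63.4), Upp1 (38), Cad (37.5), Ctps (33.5), Umps (30.3) and Tyms (22.1) to Dhodh (10.3). The ranges of Rrm1 and Tk1, of Upp1 and Cad, and of Ctps and Umps overlapped. Within each glucose library Ctps lay above Umps, while the order of the other overlapping pairs changed between libraries. With inosine, the ranges of every neighbouring pair from Rrm1 down to Ctps overlapped, although within each library Rrm1 lay above Tk1 and Tk1 above Uck2. With hypoxanthine, Rrm2 (101.7), Rrm1 (75.4), Tk1 (67.3) and Uck2 (52.5) stood in order without overlap, while Cad (28.1), Umps (26.8), Ctps (25.5) and Tyms (22.9) overlapped from neighbour to neighbour. Upp1 moved from rank 5 in glucose to rank 9 with hypoxanthine, at 8.82 FPKM, above Dhodh at 6.1 FPKM. By mean FPKM over the 9 libraries, Dhodh lay at percentile 73.9 of all 20618 genes and Rrm2 at percentile 97.8. Of these 20618 genes, 9947 averaged 1 FPKM or more, so the percentiles also count genes with little or no signal.

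Ratios within a library show unequal change between partner enzymes without dependence on library scaling. With 3 libraries against 3, the exact two-sided permutation test cannot give a p below 0.1, and over the 18 tests of 6 ratios the smallest adjusted p was 0.23, so none of them passes 0.05. The ratio of Upp1 to Uck2 was 0.6 ± 0.125 with glucose, 0.67 ± 0.303 with inosine and 0.169 ± 0.0199 with hypoxanthine (SD, n = 3), and the third group did not overlap the others (exact p = 0.1 in both comparisons). The ratio of Rrm2 to Rrm1 was 1.74 ± 0.0913 with glucose, 1.5 ± 0.183 with inosine and 1.35 ± 0.172 with hypoxanthine (SD, n = 3), and inosine overlapped both other media. Ctps2, the second CTP synthetase gene, stood to Ctps at 0.142 ± 0.0174, 0.164 ± 0.0161 and 0.23 ± 0.0235 in the same order of media, with no overlap of the third group. Tk2, the mitochondrial thymidine kinase, stood to Tk1 at 0.0496 ± 0.00368, 0.0488 ± 0.0123 and 0.0781 ± 0.0027, again with the third group apart. For Rrm2b, the small reductase subunit under p53 control, the ratio to Rrm2 was 0.0188, 0.0203 and 0.0256, and the inosine and hypoxanthine libraries overlapped. Cad to Umps was 1.24 ± 0.0613, 1.08 ± 0.397 and 1.05 ± 0.169, overlapping in every comparison.

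The second libraries of both inosine media shared a pattern among these genes. In inosine replicate 2, Umps, Upp1, Tk1, Tyms and Rrm1 were at their highest of the 3 libraries and Cad, Dhodh, Ctps, Uck2 and Rrm2 at their lowest. The same 5 and 5 genes were highest and lowest in replicate 2 of inosine plus hypoxanthine. Upp1 lay 0.49 above its inosine mean and 0.10 above its hypoxanthine mean on the log2 scale, and Cad lay at -0.38 and -0.20. In glucose, replicate 2 was highest for 7 of the 10 genes and lowest for 0. These 2 libraries also had the highest share of FPKM on the 13 mitochondrial genes, 6.5% and 5.84%, where the other 7 had 4.03% to 4.82%. Across 9378 genes with a transcript GC value, the correlation of the deviation from the medium mean with GC was -0.43 and -0.44 in them, and between -0.58 and 0.46 in the other 7, a description over genes of the same libraries. Transcript GC was 44.4% to 55.5% for the 5 genes that were high and 46% to 57.4% for the 5 that were low. The part of either value in the pattern was not tested. Without both libraries Upp1, Dhodh and Ctps were called lower against inosine and Rrm2 was not.

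**Figure D3:**
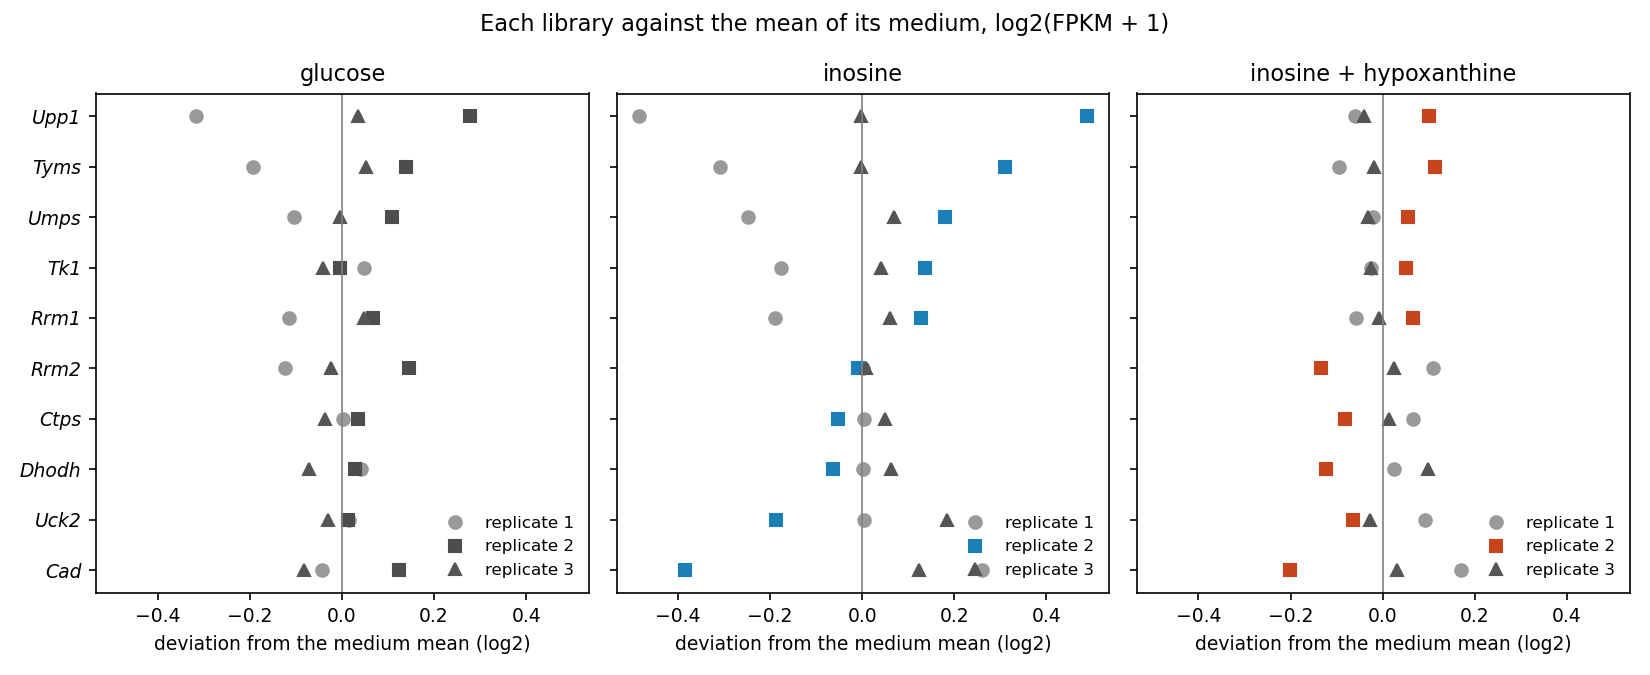
Deviation of each library from the mean of its medium, in log2(FPKM + 1), for the 10 enzyme genes ordered by inosine replicate 2. Squares, replicate 2, sit to the right for Upp1, Tyms, Umps, Tk1 and Rrm1 and to the left for the other 5 in both inosine media.

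Other genes of the pathway were described from 9 lists chosen by function, with 93 of their 95 genes measured; the other 2 were not analysed here. With inosine minus glucose, limma called 0 of the 93, 0 had an unadjusted p under 0.05, and limma voom called 0. With hypoxanthine added to inosine, 18 were called higher, 14 lower, and 61 were not called, beside 11.7% of all genes higher and 9.59% lower, or 16.0% lower among genes of at least 1 FPKM. Against glucose the counts were 14 higher and 14 lower, beside 10.8% and 9.55% of all genes. A fit of only the 9947 genes of at least 1 FPKM called 2074 of them higher and 1858 lower against inosine. Of the companion genes it called 21 higher and 17 lower. Against glucose it called 1873 genes higher and 1959 lower, and of the companion genes 17 higher and 17 lower. No share of a list is read as apart from these. The 32 calls against inosine became 21 without inosine replicate 3, 20 without replicate 1 of inosine plus hypoxanthine and 18 without its replicate 3, and the 28 against glucose became 17 without that last library. With each of the 9 libraries left out in turn, 17 of the 32 genes and 16 of the 28 were called in all 9 fits. For a named gene that lost its call, the number of fits with a call or the library concerned is given. In these paragraphs the means are FPKM of 3 libraries, the differences are log2 differences against inosine, and adjusted p-values are from limma. Up to 4 genes a list were named by smallest adjusted p or highest level, and other called genes were named after their values were seen.

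Enzymes of pyrimidine salvage and phosphorylation, with those around dUTP and dCTP, were lower in 5 of 15, higher in 1 of 15 and not called in 9. Nme6, a nucleoside diphosphate kinase family member, averaged 8.08 FPKM with hypoxanthine and 16.7 with inosine (difference -0.95, adjusted p = 0.00164). Nme1, a main nucleoside diphosphate kinase, averaged 170.9 against 239.9 FPKM (-0.49, adjusted p = 0.00674), while the neighbouring Nme2 at 383.2 against 472.4 FPKM was not called (adjusted p = 0.0753). Reads of Nme1 and Nme2, close paralogs, may have been split between them by the authors' counting. Among the rest, Dut, which removes dUTP, averaged 65.1 against 81.4 FPKM, Cmpk1, the UMP-CMP kinase, 38.1 against 46.8 and Dctpp1, a dCTP pyrophosphatase, 79.1 against 106.2, all called lower, Dctpp1 in 2 of the 9 fits. Uckl1, a relative of Uck2, was the gene called higher, at 10.8 against 8.22 FPKM. The median of the list was -0.20.

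The thymidylate and folate cycle gave 3 of 5 genes lower and none higher, with a median of -0.48. Shmt1, cytosolic serine hydroxymethyltransferase, averaged 32.4 FPKM with hypoxanthine and 46.8 with inosine (-0.52, adjusted p = 0.00046). Mthfd1 averaged 36.2 against 48.3 FPKM (adjusted p = 0.00915) and the mitochondrial Mthfd2 65.5 against 91.9 (adjusted p = 0.0285, called in 3 of the 9 fits); both interconvert folates that carry a carbon unit. Shmt2, the mitochondrial counterpart of Shmt1, at 77 against 118.2 FPKM was not called here (adjusted p = 0.0644) and was called lower against glucose (adjusted p = 0.023, called in 4 of the 9 fits).

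Of 5 genes for deoxynucleosides outside the cytosolic Tk1 route, 3 were called higher, 0 lower and 2 neither, with a median of 0.40. Dguok, mitochondrial deoxyguanosine kinase, averaged 13.8 FPKM with hypoxanthine and 8.93 with inosine (0.58, adjusted p = 0.00152). Tk2 averaged 5.25 against 3.76 FPKM (0.40, adjusted p = 0.0128). Samhd1, a hydrolase that destroys deoxynucleotides, averaged 38.7 against 26 FPKM (0.56, adjusted p = 0.0375, called in 3 of the 9 fits), and against glucose it was not called. Dck, the cytosolic deoxycytidine kinase, at 16 against 17.2 FPKM was not called.

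Nucleoside carriers were called higher in 3 of 6, lower in 1 and neither in 2. Slc29a3 averaged 4.32 against 2.24 FPKM (0.72, adjusted p = 0.00088) and Slc29a1, the main equilibrative nucleoside carrier of the cell surface, 49.6 against 35.1 (0.49, adjusted p = 0.00151). Slc28a2, a sodium-driven carrier that takes up purine nucleosides and uridine, averaged 14.9 against 8.54 FPKM (0.75, adjusted p = 0.0045). Slc25a33, a pyrimidine nucleotide carrier of mitochondria, was the gene called lower, at 4.22 against 6.69 FPKM, and lost the call without replicate 3 of inosine plus hypoxanthine. Among 8 breakdown genes and nucleotidases, Nt5e, the surface enzyme that releases nucleosides from nucleoside monophosphates, was called higher at 2.89 against 1.14 FPKM (0.87, adjusted p = 0.000468) and 7 were not called. Nt5c, a cytosolic deoxynucleotidase, averaged 74.5 against 75.6 FPKM and was not called. Neither was Nt5c3b, at 27.1 against 31.2 FPKM (-0.19, adjusted p = 0.165). Of 4 genes for PRPP, the ribose donor that Umps and the salvage enzymes use, Prps1 was called lower at 37.2 against 49.9 FPKM (-0.41, adjusted p = 0.0163) and 3 were not called. Prps2 averaged 13.8 against 11.9 FPKM and Prpsap1 26.6 against 23.1, a difference of 0.20 for each, and neither was called. The median of the list was 0.06, with 2 of 4 genes below 0. Prps1 was called in 6 of the 9 fits and lost its call without inosine replicate 3 or without replicate 1 or 3 of inosine plus hypoxanthine.

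Most genes of DNA replication and mitosis were not called. Of 25 replication genes, 2 were higher, 2 lower and 21 not called, with a median of -0.04. Pcna, the sliding clamp, averaged 355.5 FPKM with hypoxanthine and 366.8 with inosine (-0.04, adjusted p = 0.86). Pold1, the catalytic subunit of polymerase delta, averaged 36.7 against 26.8 FPKM and was higher (0.44, adjusted p = 0.0138, called in 7 of the 9 fits). Mcm7, a subunit of the replicative helicase, averaged 128.1 against 104.9 FPKM and was higher (0.29, adjusted p = 0.0462, called in 1 of the 9 fits). Ccne1, cyclin E, averaged 33.4 against 40.6 FPKM and was lower (-0.27, adjusted p = 0.0174, called in 7 of the 9 fits), as was Mcm3 (called in 4).

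Of 12 mitotic genes, 2 were higher, 2 lower and 8 not called. Top2a averaged 147.1 against 144.9 FPKM and Cenpa 99.2 against 95.9, neither called. Aurka, a spindle kinase, averaged 27.5 against 35.6 FPKM and was lower in all 9 fits (-0.36, adjusted p = 0.00332). Ccnb1, cyclin B, averaged 52.2 against 70 FPKM and was lower (-0.41, adjusted p = 0.0126), but not without replicate 3 of inosine plus hypoxanthine. Cenpf, called in 1 of the 9 fits, and Kif11, called in 3, were higher.

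Regulators of these genes were called higher in 6 of 13, lower in 0 and not called in 7, with a median of 0.36. E2f2, an activating E2F factor, averaged 9.14 FPKM with hypoxanthine and 5.52 with inosine (0.64, adjusted p = 0.00088). Max, the partner of MYC, averaged 74.8 against 52.9 FPKM (0.49, adjusted p = 0.00148), and Myc, known to drive Cad and other nucleotide genes, averaged 104.9 against 62.7 (0.74, adjusted p = 0.00956). Trp53 averaged 94 against 73.2 FPKM (0.36, adjusted p = 0.0205, called in 7 of the 9 fits). E2f7 and Rb1 were the other 2, called in 6 of the 9 fits each. Tfdp1, the E2F partner, at 79 against 85.7 FPKM was not called. Without replicate 1 or replicate 3 of inosine plus hypoxanthine, 3 of these calls were made, for E2f2, Max and Myc. E2f7 and Rb1 also lost the call without inosine replicate 3. Against glucose E2f2 and Max were higher in all 9 fits, Myc was higher and E2f4 lower in 4 of the 9 fits each.

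**Figure D4:**
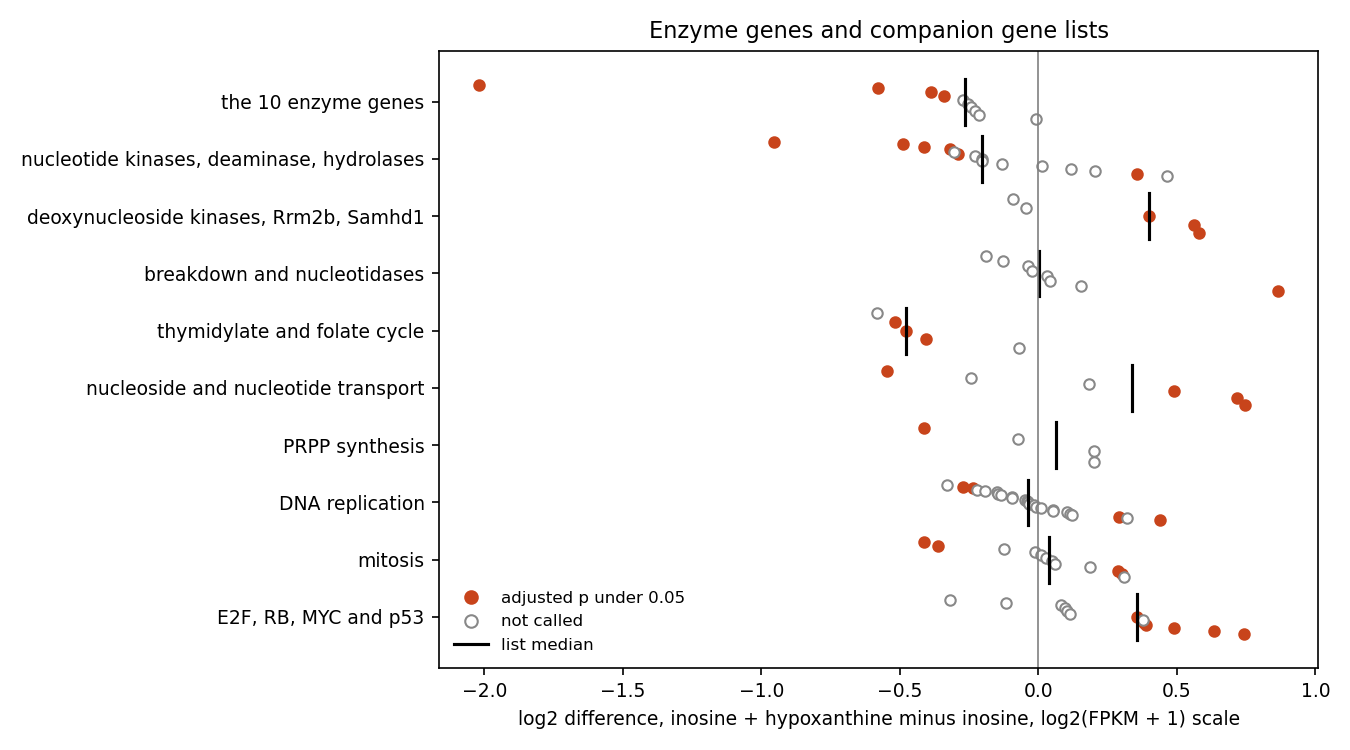
Log2 difference between inosine plus hypoxanthine and inosine for the 10 enzyme genes and for the 93 measured genes of 9 companion lists (log2(FPKM + 1) scale); orange points have a limma adjusted p under 0.05 and black lines are list medians. The medians of the enzyme genes, the folate cycle and the nucleotide kinases, deaminase and hydrolases lie left of 0 (-0.26, -0.48 and -0.20). Those of the regulators, of the deoxynucleoside kinases, Rrm2b and Samhd1, and of transport lie to the right (0.36, 0.40 and 0.34). In the lists to the right, 2 of 13, 2 of 5 and 2 of 6 genes lie left of 0. The other medians lie from -0.04 to 0.06.

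The authors' deposited table for hypoxanthine against inosine gave an adjusted p under 0.05 to 6 of the 10 members, where 22.7% of the genes with a value there were under it. These were Upp1, Dhodh, Ctps and Rrm2, with Umps (adjusted p = 0.0482) and Rrm1 (adjusted p = 0.0458) just inside the threshold. In the authors' deposited table against glucose the number was 8, with Tyms and Rrm1 outside, where 26.5% of genes were under the threshold. In the authors' deposited table of glucose against inosine it was 0, where 0.00506% of genes were. The mean normalised read count of Upp1 in the authors' deposited tables was 2681 with inosine and 571.5 with hypoxanthine. Where the count of an enzyme could hold reads of a neighbour, the annotation names Afmid on the opposite strand at Tk1 (mean 4.04 FPKM), and genes without a protein on the opposite strand at Umps and Uck2. The strand of the libraries is not stated, so reads of these partners cannot be told apart where they overlap. Tyms has an annotated processed pseudogene, and its count is uncertain to the extent that reads were shared with it.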

How the data were processed

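Total RNA of 9 samples was sequenced paired-end, per the labels; HISAT2, featureCounts, Subread 2.0.1, DESeq2 1.38.3 and mm10 are named in the submitters' processing notes, without their roles. The deposited tables give FPKM per gene and library, computed by the authors, the signal of each group as a mean normalized read count, and the authors' log2 fold changes and p-values. In the authors' tables with hypoxanthine, the log2 fold change is the other medium minus hypoxanthine, so its sign was not used.

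The members and all gene lists were chosen with earlier results of these data known. The FPKM of all 20618 genes were tested as log2(FPKM + 1) with limma 3.58.1 in R 4.3.3 (trend and robust options), with a mean per medium and no filter; the pseudocount understates changes of low genes. Calls were made at an adjusted p of 0.05 over all genes. Reads were recovered as whole numbers, within 0.0005, for 19984 genes (96.93%) including all 10 members, and give the depth; intervals and tests were not built from them except in 1 alternative. Ratios were tested by exact permutation (scipy 1.17.1). All 10 members were named in the text. Of each list, up to 4 genes were named by smallest adjusted p against inosine or by highest FPKM over all libraries. Alternatives were a pseudocount of 0.1, genes of at least 1 FPKM, median-of-ratios scaling, the replicate number as a block, the 2 compared media alone and each library left out. Limma voom on recovered reads, and both libraries of highest mitochondrial share left out, were added after seeing the data. No sample was left out of the main tests.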

Additional observations from a re-analysis of the deposited data

How the results depend on the processing

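Upp1, Dhodh and Ctps were called lower in both hypoxanthine comparisons under all 16 alternatives, and Rrm2 in 15 of 16 against inosine (adjusted p 0.00532 to 0.061) and 16 of 16 against glucose. For calls lost or gained the cause was not tested. With 1 library left out in turn, the members called ranged from 4 to 7 against inosine and from 4 to 7 by the test among the 3 media, and the companion genes called ranged from 18 to 34 against inosine and from 17 to 33 against glucose. Apart from leaving out single libraries, 22 of the 32 companion calls against inosine and 27 of the 28 against glucose were made under every alternative that tested the gene; Nme1 had no recovered reads and was not tested by limma voom. The calls of Samhd1, Mcm3, Mcm7, E2f7, Rb1, Cenpf and Kif11 against inosine were lost without both libraries of highest mitochondrial share, those of Mcm7 and Kif11 also by median-of-ratios scaling, that of Mcm3 also under the replicate block, and those of Mcm3, Mcm7, Trp53, Prps1 and Dctpp1 in the fit of the 2 media alone. The fit of the 2 compared media alone called 7 members against glucose. The replicate block called 5 members lower against inosine (Rrm1 added, limma adjusted p = 0.0432), beside 1982 of 20618 genes. It called 4 members lower against glucose, beside 2005 genes, and 0 for inosine minus glucose. The deviations of samples of 1 number correlated at 0.404, 0.264 and -0.27 between glucose and inosine, 0.0847, -0.201 and -0.0629 between glucose and hypoxanthine, and 0.411, 0.635 and 0.0177 between inosine and hypoxanthine (replicates 1 to 3). Not every pair exceeded 0.1 in any comparison and not every sample correlated best with its own number, so the numbers were not taken to pair samples. Differences that were not called and changed sign: without both libraries of highest mitochondrial share, inosine minus glucose was 0.038 for Cad, -0.198 for Upp1, 0.052 for Uck2, -0.046 for Tk1 and -0.099 for Tyms. Tyms against inosine was 0.093 there and 0.012 by limma voom, and against glucose -0.006. With 1 library left out, inosine minus glucose ranged from -0.284 to 0.038 for Cad, -0.198 to 0.288 for Upp1, -0.135 to 0.052 for Uck2, -0.046 to 0.111 for Tk1 and -0.099 to 0.212 for Tyms; Tyms ranged from -0.161 to 0.149 against inosine and -0.046 to 0.120 against glucose. The log2 ratios for inosine minus glucose ranged from -0.231 to 0.143 for Tk2 to Tk1, -0.257 to 0.340 for Upp1 to Uck2 and -0.528 to 0.026 for Cad to Umps, and that of Cad to Umps against inosine from -0.271 to 0.283. Where a medium was left with fewer libraries, its spread was taken from the shared fit. The lowest read number behind a member was 500 in a library, and 3 libraries per medium set the width of the intervals.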
